A study of Mus musculus with 27 samples.

Results

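Heme breakdown and iron handling were followed through 10 genes: Hmox1, Slc48a1, Bach1, Fth1, Ftl1, Slc40a1, Tfrc, Slc11a1, Slc11a2 and Ireb2. The genes were chosen by name from the 55483 genes of the deposited count table, and each symbol matched 1 row. They were selected on prior results of these libraries as well as on function: the large increase of Hmox1 under LPS with TM7nox, in total RNA and in anti-HuR RIP, was known beforehand. For these 10 genes, comparisons of LPS with TM7nox against another treatment are therefore given as descriptions, with fold changes and counts past the threshold but no p-value for a single gene. Comparisons of LPS with DMSO, of RIP with total RNA and of RIP with IgG are given with their tests, with exceptions given as descriptions. The exceptions are Slc40a1 in RIP for LPS, and Hmox1 where RIP with TM7nox is set against total RNA or IgG. All 10 genes passed the filter on low counts in every comparison, Slc40a1 in RIP only through the libraries with TM7nox.

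The cells were RAW264.7, an established line of mouse macrophages, harvested after 6 h of treatment. The control group received the solvent DMSO. The LPS group received a lipopolysaccharide of bacterial cell walls, which activates macrophages, at 1 µg/ml and also DMSO. The LPS with TM7nox group received the same LPS together with TM7nox at 10 µM. LPS against DMSO is thus read with the solvent in both groups. TM7nox is one of the tanshinone mimics, small molecules made to interfere with the binding of RNA by HuR, an RNA-binding protein encoded by Elavl1. No group received TM7nox without LPS. Each treatment was profiled in 4 libraries of total RNA and in 4 libraries of RNA recovered on an anti-HuR antibody (RIP, ribonucleoprotein immunoprecipitation). RNA recovered on control IgG was profiled in 1 library per treatment, which carries replicate number 3. All groups share 1 cell line and 1 time point. Nothing in the labels says that replicates were separate cultures, so p-values measure only the spread between these samples, which may be technical.

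Macrophages take up heme and iron from dying red cells and recycle them. Slc48a1 (HRG1) carries heme out of the phagolysosome, and heme oxygenase 1, the product of Hmox1, opens the heme ring and frees iron, carbon monoxide and biliverdin. The freed iron is stored in ferritin, built from heavy (Fth1) and light (Ftl1) chains, or leaves the cell through ferroportin (Slc40a1), the iron exporter. Tfrc is the receptor that brings in transferrin-bound iron. Slc11a1 (Nramp1) moves divalent metal out of phagosomes, and Slc11a2 (DMT1) moves it out of endosomes. Bach1 is a heme-binding repressor that sits, with small Maf proteins, on the antioxidant response elements of genes such as Hmox1 and the ferritins, where Nrf2 can also bind. Ireb2 encodes iron regulatory protein 2, which binds iron-responsive elements (IREs), stem-loops in the untranslated regions (UTRs) of iron genes. HuR favours stretches of U and of A with U in its target mRNAs.

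The IREs are shown because they divide the 10 genes by the end of the mRNA at which a match lies. A stem-loop was searched in the UTRs of GENCODE M39 transcripts, on GRCm39. It needed a bulged C, 5 paired bases, the loop CAGUGN with a last base other than G, and at least 4 further pairs below the bulge, with G-U pairs allowed. The loop is in capitals and the sequences are written 5′ to 3′ on the mRNA strand.
Fth1, 5′ UTR, chr19:9960097-9960123: uccugcuucaaCAGUGCuugaacggaa
Ftl1, 5′ UTR, chr7:45109204-45109230: ucuugcuucaaCAGUGUuugaacggaa
Slc40a1, 5′ UTR, chr1:45964626-45964652: aacuucagcuaCAGUGUuagcuaaguu
Tfrc, 3′ UTR, chr16:32450038-32450064: auuaucggaagCAGUGCcuuccauaau
Tfrc, 3′ UTR, chr16:32450417-32450443: auuaucgggagCAGUGUcuuccauaau
Tfrc, 3′ UTR, chr16:32450482-32450508: uauaucggagaCAGUGAucuccauaug
Tfrc, 3′ UTR, chr16:32450529-32450555: auuaucgggaaCAGUGUuucccauaau
Fth1, Ftl1 and Slc40a1 each held 1 match in the 5′ UTR, and Tfrc held 4 in the 3′ UTR. Over all coding genes, 6 of 20937 (0.0287%) had a match in a 5′ UTR and 10 of 20969 (0.0477%) in a 3′ UTR. The other 6 genes had no match to these letters in either UTR, Slc11a2 included. Fth1 and Tfrc lie on the plus strand, and Ftl1 and Slc40a1 on the minus strand.

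The upstream sequence is shown because Hmox1, Fth1 and Ftl1 are named targets of Bach1 and Nrf2. The motif TGACTCAGC, a strict form of the antioxidant response element, was searched on both strands in the 12000 bases before the start of each gene's canonical transcript on GRCm39. Hmox1 held 4 matches, a number reached by 0.0506% of 21758 coding genes. Fth1, Ftl1 and Slc11a2 held 1 each, where 16.4% of coding genes held at least 1, and the other 6 genes held none. In the sequences below, written 5′ to 3′ on the strand of the gene, the matches are in capitals and read as GCTGAGTCA where they lie on the opposite strand.
Hmox1, plus strand, chr8:75810562-75810657: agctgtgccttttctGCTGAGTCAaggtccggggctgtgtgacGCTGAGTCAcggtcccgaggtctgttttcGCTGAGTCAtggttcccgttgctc
Hmox1, plus strand, chr8:75816363-75816401: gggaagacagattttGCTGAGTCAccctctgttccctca
Fth1, plus strand, chr19:9955989-9956027: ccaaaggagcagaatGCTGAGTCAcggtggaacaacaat
Ftl1, minus strand, chr7:45110388-45110426: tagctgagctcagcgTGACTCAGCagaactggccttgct
3 of the Hmox1 matches lay together, the first of them at position -9664 from the transcript start, and the other was at -3863. The Fth1 match was at -4006 and the Ftl1 match at -1103. A match is a run of letters and does not show that a protein was bound there.

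Total RNA libraries held 2728534 to 28285856 counts, RIP libraries 19816312 to 41449233 and IgG libraries 8873091 to 24513902. The shallowest library was total RNA DMSO replicate 1. Levels are given in CPM, counts scaled to a common library size by TMM over the 27 libraries. All 8 macrophage markers had counts in every group of total RNA, and their summed level was 4408 to 5653 CPM in DMSO, 3020 to 4734 CPM in LPS and 2124 to 4652 CPM with TM7nox. The part of that shift in the results below was not tested. The 8 markers of erythroid cells, which are rich in heme and iron genes, summed to at most 0.642 CPM in any total RNA library, and Gata1, Hba-a1, Hbb-bs and Hbb-bt were at 0 in every one. Markers of hepatocytes, lymphocytes, fibroblasts and epithelial cells summed to at most 0.0666, 0.262, 0.166 and 0.39 CPM there. Same-numbered libraries deviated together across treatments. In total RNA, replicate 1 had the highest Slc11a1, Slc48a1 and Ftl1 and the lowest Ireb2 in each of the 3 treatments. In RIP, replicate 4 had the lowest Hmox1 in each. Exons of Slc40a1, Fth1, Ftl1 and Slc11a2 overlap those of predicted genes by 262, 1462, 464 and 927 bases, and how reads shared with these were counted is not known. For Ftl1 1 of the overlapping genes, Gm56125, lies on the same strand. These are bulk samples, so fewer cells of a kind and less RNA per cell cannot be told apart.

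Hmox1 (ENSMUSG00000005413, chr8:75820241-75827217, plus strand) was higher after LPS and far higher with TM7nox added. In total RNA, replicates 1 to 4 had 73.4, 51.2, 45.8 and 58.7 CPM in DMSO. In LPS they had 72.9, 78.4, 128 and 124 CPM, and in LPS with TM7nox 896, 1375, 987 and 932 CPM. The lowest LPS library lay just under the highest DMSO library, so those groups overlapped, while every library with TM7nox was above every library without it. LPS raised Hmox1 by 0.76 on the log2 scale (SE 0.218, adjusted p = 0.012, edgeR quasi-likelihood test, n = 4 per group). This call was lost in replicates 1 and 2 alone, where the log2 fold change was 0.26 (adjusted p = 0.657), and with scaling by library totals, where it was 0.45 (adjusted p = 0.106), or 0.73 relative to the median of all genes. With TM7nox added to LPS the log2 fold change was 3.38 (SE 0.235), a 10.4-fold higher level, given as a description.

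**Figure D1:**
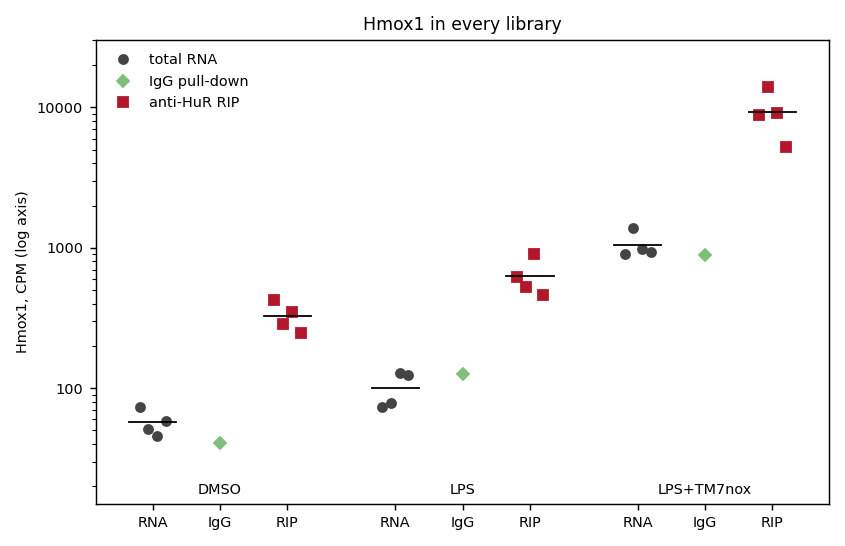
Hmox1 in each of the 27 libraries, in CPM on a log axis, by treatment and by kind of library (total RNA, control IgG, anti-HuR RIP). Points are libraries and bars are means of 4, and the 4 RIP libraries with TM7nox lie between 5209 and 13977 CPM, above all others.

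In anti-HuR RIP, Hmox1 had 425, 286, 350 and 245 CPM in DMSO and 621, 530, 902 and 461 CPM in LPS. With TM7nox it had 8883, 13977, 9103 and 5209 CPM. The 3 groups did not overlap. LPS raised it by 0.91 on the log2 scale (SE 0.265, adjusted p = 0.0111, edgeR), a call lost without RIP LPS replicate 3, the highest LPS library (log2 fold change 0.68, adjusted p = 0.058), in replicates 1 and 2 alone (0.64, adjusted p = 0.25), and with scaling by library totals (0.27, adjusted p = 0.327, or 0.89 relative to the median of all genes). TM7nox with LPS stood 3.91 above LPS on the log2 scale (SE 0.295). By then Hmox1 reads made up a mean of 0.559% of all RIP counts, against 0.0375% in LPS and 0.0312% in DMSO. The plot of Hmox1 in every library shows total RNA, IgG and RIP rising in the same order of treatments.

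Slc48a1, the heme transporter (ENSMUSG00000081534, chr15:97676401-97690573, plus strand), was lower after LPS and higher with TM7nox. In total RNA it had 54.8, 34.0, 38.9 and 33.7 CPM in DMSO and 32.2, 22.5, 18.3 and 18.2 CPM in LPS. With TM7nox it had 162, 132, 88.8 and 84.3 CPM. The 3 groups did not overlap. LPS lowered it by a log2 fold change of -0.87 (SE 0.263, adjusted p = 0.0161, edgeR). That call was lost without RNA LPS replicate 3 or 4 (adjusted p = 0.052 and 0.0527) and in replicates 1 and 2 alone (log2 fold change -0.71, adjusted p = 0.174). The log2 fold change of TM7nox with LPS over LPS was 2.36 (SE 0.271).

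In RIP, Slc48a1 ranged from 26.6 to 44.2 CPM in DMSO, from 18.4 to 31.4 in LPS and from 42.6 to 103 with TM7nox. LPS against DMSO was -0.58 there and was not called (SE 0.245, adjusted p = 0.0643, edgeR). With the replicate number as a block it was called, at -0.59 (adjusted p = 0.00213, edgeR), as it was in DESeq2 (-0.60, adjusted p = 0.044). Exons of Slc48a1 share 2396 bases with those of Hdac7 on the other strand. Hdac7 had at most 0.499 CPM in any total RNA or RIP library.

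Bach1, the heme-binding repressor (ENSMUSG00000025612, chr16:87495782-87530234, plus strand), was higher after LPS. In total RNA it had 41.1, 29.5, 34.0 and 36.5 CPM in DMSO, and 47.9, 46.2, 58.7 and 62.1 CPM in LPS. The groups did not overlap, and the log2 fold change was 0.56 (SE 0.147, adjusted p = 0.00747, edgeR). In replicates 1 and 2 alone it was 0.40 and was not called (adjusted p = 0.385). In RIP the log2 fold change was 0.72 (SE 0.211, adjusted p = 0.011, edgeR), and the groups again did not overlap. It was not called there without RIP DMSO replicate 2 (0.58, adjusted p = 0.0579) or in replicates 1 and 2 alone (0.72, adjusted p = 0.0742). With scaling by library totals Bach1 was not called in total RNA (0.25, adjusted p = 0.201) or RIP (0.10, adjusted p = 0.696), and stood at 0.54 and 0.72 relative to the median of all genes. With TM7nox, Bach1 had 54.8, 75.1, 79.7 and 64.2 CPM in total RNA, and 89.4, 155, 149 and 142 CPM in RIP, and both overlapped LPS, which reached 97.2 CPM in RIP. The log2 fold changes over LPS were 0.35 (SE 0.145) and 0.75 (SE 0.211).

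Fth1, the ferritin heavy chain (ENSMUSG00000024661, chr19:9957911-9962462, plus strand), was higher after LPS in both kinds of library. In total RNA it had 1463, 1737, 2517 and 2271 CPM in DMSO. After LPS it had 3101, 3625, 5616 and 4963 CPM, and with TM7nox 5520, 5981, 6458 and 6812 CPM. All LPS libraries were above all DMSO libraries, and LPS raised Fth1 by 1.06 on the log2 scale (SE 0.206, adjusted p = 0.000843, edgeR). The 2 LPS groups overlapped at 1 library, LPS replicate 3, and TM7nox stood 0.52 above LPS on the log2 scale (SE 0.204). In RIP, Fth1 had 453 to 837 CPM in DMSO, 1335 to 2922 CPM in LPS and 1557 to 2497 CPM with TM7nox, so that only the DMSO group stood apart. LPS raised Fth1 in RIP by 1.61 (SE 0.259, adjusted p = 0.000109, edgeR), and TM7nox over LPS was -0.05 (SE 0.253).

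Ftl1, the light chain (ENSMUSG00000050708, chr7:45107367-45109308, minus strand), had 285, 127, 154 and 155 CPM in DMSO in total RNA. It had 291, 110, 170 and 170 CPM in LPS and 502, 256, 286 and 341 CPM with TM7nox. Same-numbered DMSO and LPS libraries lay close together, and the log2 fold change was -0.02 (SE 0.325, adjusted p = 0.972, edgeR). With TM7nox each library was above the same-numbered LPS library, although the groups overlapped at replicate 1 of LPS. The log2 fold change over LPS was 0.90 (SE 0.326). Near-identical copies in the genome could have taken part of the ferritin reads. Of the rows described as ferritin, Ftl2-ps had a mean of 62.9, 70.2 and 137 CPM in DMSO, LPS and LPS with TM7nox in total RNA, and Ftl1-ps1 7.06, 7.86 and 13.6 CPM. Ftl1 held 63 to 81.4% of the sum of these 3 rows in total RNA, and the level of Ftl1 is uncertain to that extent.

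**Figure D2:**
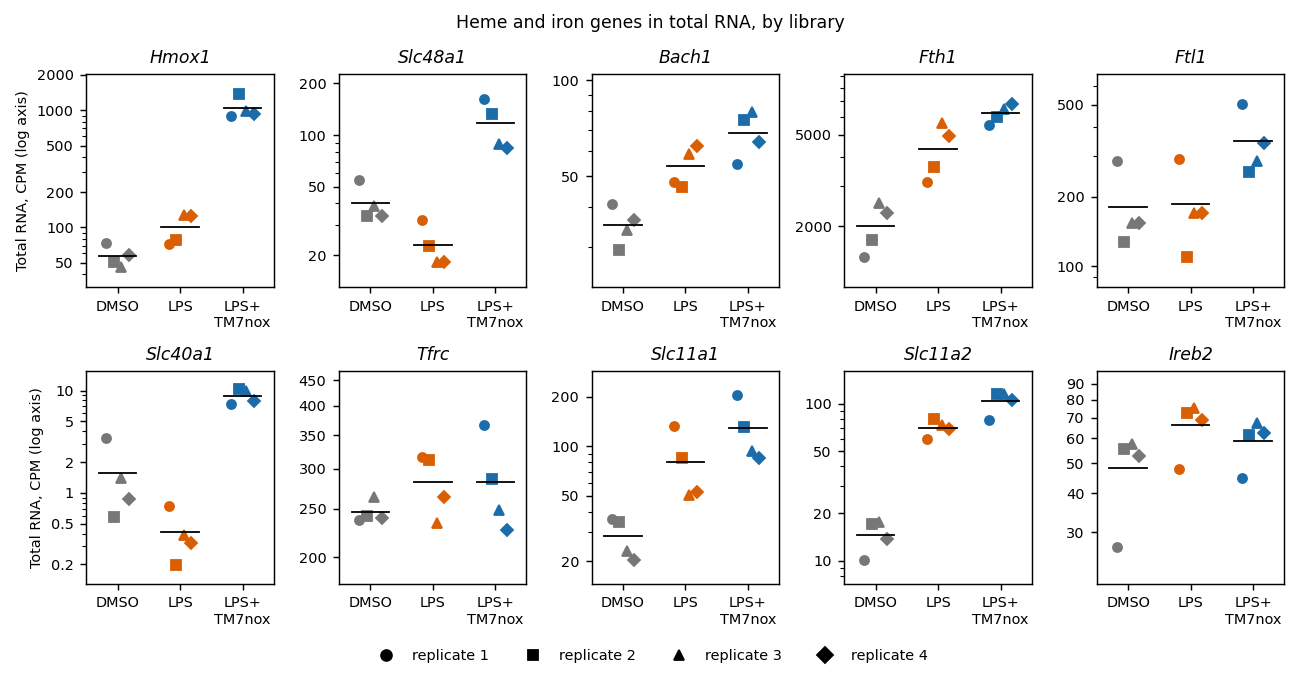
CPM of the 10 genes in the 12 total RNA libraries, on log axes that differ between panels, with 1 symbol per replicate number and a bar at each group's mean. Every library with TM7nox lies above all others for Hmox1, Slc48a1 and Slc40a1, while the groups of Tfrc and Ireb2 overlap.

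Slc40a1, ferroportin (ENSMUSG00000025993, chr1:45947211-45965683, minus strand), was scarce without TM7nox. In total RNA it had 3.42, 0.58, 1.41 and 0.866 CPM in DMSO, from 16 to 43 counts per library. It had 0.737, 0.197, 0.388 and 0.321 CPM in LPS, from 6 to 17 counts, and 7.40, 10.3, 9.86 and 7.96 CPM with TM7nox, from 152 to 296 counts. LPS lowered it by a log2 fold change of -1.71 (SE 0.521, adjusted p = 0.0165, edgeR), although DMSO replicate 2 lay below LPS replicate 1. The call was lost without RNA LPS replicate 2 (-1.47, adjusted p = 0.0503) and in replicates 1 and 2 alone (-1.89, adjusted p = 0.265). TM7nox with LPS was 4.45 above LPS on the log2 scale (SE 0.5), and its fold change of 21.9 stood at percentile 100 of all genes tested in that comparison.

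In RIP, Slc40a1 rested on 8 to 24 counts per library in DMSO, 3 to 4 in LPS and 79 to 191 with TM7nox. The levels were 0.262 to 0.748, 0.14 to 0.229 and 5.99 to 9.65 CPM, and the groups did not overlap. The log2 fold change of LPS against DMSO was -1.49 (SE 0.376), and -1.11 in replicates 1 and 2 alone, given as a description. The gene entered this fit through its counts in the TM7nox group, where it is high and which was known when the genes were chosen. With no filter on any gene the value was -1.49, from the same few counts, which adds no separate support. The log2 fold change of TM7nox with LPS over LPS was 5.38 (SE 0.338).

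Tfrc, the transferrin receptor (ENSMUSG00000022797, chr16:32427556-32451612, plus strand), showed no call for LPS. In total RNA it had 238, 242, 264 and 240 CPM in DMSO, 317, 312, 234 and 264 CPM in LPS and 367, 286, 248 and 227 CPM with TM7nox. The groups overlapped throughout. The log2 fold change for LPS was 0.14 (SE 0.16, adjusted p = 0.517, edgeR) in total RNA and 0.08 (SE 0.263, adjusted p = 0.817, edgeR) in RIP. TM7nox over LPS was 0.00 in total RNA (SE 0.16) and 0.19 in RIP (SE 0.263).

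Slc11a2, the endosomal metal transporter (ENSMUSG00000023030, chr15:100285776-100322953, minus strand), had the largest LPS response of the 10. In total RNA it had 10.1, 17.1, 17.8 and 13.8 CPM in DMSO. In LPS it had 59.8, 80.1, 72.9 and 68.8 CPM, and with TM7nox 78.4, 116, 115 and 105 CPM. No LPS library came near the DMSO range, and LPS raised it by 2.18 on the log2 scale (SE 0.169, adjusted p = 2.03e-07, edgeR). In RIP it went from 9.82 to 12.3 CPM in DMSO to 59.5 to 71.1 CPM in LPS, a log2 fold change of 2.60 (SE 0.149, adjusted p = 2.1e-09, edgeR). TM7nox over LPS was 0.56 in total RNA (SE 0.159), with 1 library inside the LPS range, and 0.24 in RIP (SE 0.14). Slc11a2 mRNA is made in forms with and without an IRE, which counts per gene cannot separate.

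Slc11a1, the phagosomal metal transporter (ENSMUSG00000026177, chr1:74414303-74425448, plus strand), had 36.2, 34.5, 23.3 and 20.5 CPM in DMSO in total RNA. It had 132, 85.3, 50.9 and 52.9 CPM in LPS and 206, 132, 93.5 and 85.0 CPM with TM7nox. LPS raised it by 1.45 on the log2 scale with no overlap (SE 0.359, adjusted p = 0.00474, edgeR), and by 1.78 in RIP (SE 0.435, adjusted p = 0.00349, edgeR). TM7nox over LPS was 0.68 in total RNA (SE 0.348), where the groups overlapped, and 0.17 in RIP (SE 0.419). RIP levels were 4.43 to 15.7 CPM in DMSO, 18.8 to 46.8 CPM in LPS and 13.4 to 53.4 CPM with TM7nox, so the 2 LPS groups overlapped widely.

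Ireb2, the iron sensor (ENSMUSG00000032293, chr9:54770970-54820011, plus strand), had 27.0, 55.4, 57.4 and 52.7 CPM in DMSO in total RNA. It had 47.8, 72.5, 75.3 and 68.5 CPM in LPS and 44.9, 61.4, 67.4 and 62.4 CPM with TM7nox. Replicate 1 was lowest in each treatment, so the groups overlapped. LPS against DMSO was 0.39 and was not called (SE 0.201, adjusted p = 0.138, edgeR). With the replicate number as a block it was called, at 0.41 (adjusted p = 0.00257, edgeR), and each LPS library was above the DMSO library of its number. In RIP the log2 fold change for LPS was 0.16 (SE 0.213, adjusted p = 0.577, edgeR), with 95.7 to 160 CPM in DMSO and 110 to 190 CPM in LPS; with scaling by library totals it was called lower, at -0.49 (adjusted p = 0.0368, edgeR), or 0.14 relative to the median of all genes. TM7nox over LPS was -0.16 in total RNA (SE 0.2) and 0.40 in RIP (SE 0.214).

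Counted together, LPS against DMSO gave 5 higher and 2 lower of the 10 genes in total RNA, where 42% of 12369 genes tested were called. The median log2 fold change of the 10 was 0.47, beside -0.04 over all genes tested. In RIP, LPS gave 5 higher and 1 lower, where 44.7% of 13614 genes were called, with a median of 0.53 beside 0.00. The higher genes were Hmox1, Bach1, Fth1, Slc11a1 and Slc11a2 in both kinds of library. The lower ones were Slc40a1 and Slc48a1 in total RNA and Slc40a1 in RIP, where it passed the filter only through the TM7nox libraries. The Slc40a1 call in RIP is counted here but not read as a test. With scaling by library totals the median of all genes moved by -0.28 in total RNA and -0.63 in RIP. The share of called genes that were higher then went from 48.2 to 27.7% in total RNA and from 52.6 to 16.8% in RIP. Of the 10 genes, that scaling called 3 higher and 2 lower in total RNA, and 3 higher and 3 lower in RIP, where Slc48a1 was called lower (-1.19, adjusted p = 0.00149, edgeR). Libraries of LPS and DMSO did not overlap for 5 of the 10 genes in total RNA and 6 in RIP. Over all genes tested, 38.5% in total RNA and 41% in RIP did not overlap. The 10 genes were picked with results known, so their counts are set beside these shares without a test.

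Adding TM7nox to LPS gave 4 higher and 0 lower of 10 in total RNA (Hmox1, Slc40a1, Slc48a1 and Slc11a2), where 13.8% of genes tested were called. In RIP it gave 4 higher and 0 lower (Hmox1, Slc40a1, Slc48a1 and Bach1), where 16.2% were called. With the replicate number as a block, 7 of the 10 were called in total RNA, and over all genes 3091 were called in place of 1704. The block also moved the RIP count over all genes, from 2212 to 4577. The call of Slc11a2 was lost without LPS replicate 1, 3 or 4 or LPS+TM7nox replicate 2, 3 or 4, and that of Bach1 in RIP without LPS replicate 1 or 2 or LPS+TM7nox replicate 2 or 4. Against DMSO, LPS with TM7nox gave 8 higher and 0 lower in total RNA, where 47.3% of genes were called, and 8 higher and 0 lower in RIP, where 48.1% were called. The Ftl1 call in total RNA held in 12 of 19 alternatives and the Ireb2 call in RIP in 6 of 19, with losses on leaving out single libraries. With scaling by library totals the share of called genes that were higher went from 50 to 29% in total RNA and from 52.1 to 18.2% in RIP for this comparison. Libraries of LPS with TM7nox and of LPS did not overlap for 3 of the 10 genes in total RNA and 3 in RIP. Over all genes tested the shares were 21.4% and 17.4%. Against DMSO they did not overlap for 7 and 5, where 41.5% and 41.3% of all genes tested did not. These counts describe genes chosen with that treatment's results in view, so nothing is read from them. The comparisons with LPS and with DMSO share libraries and are not independent.

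**Figure D3:**
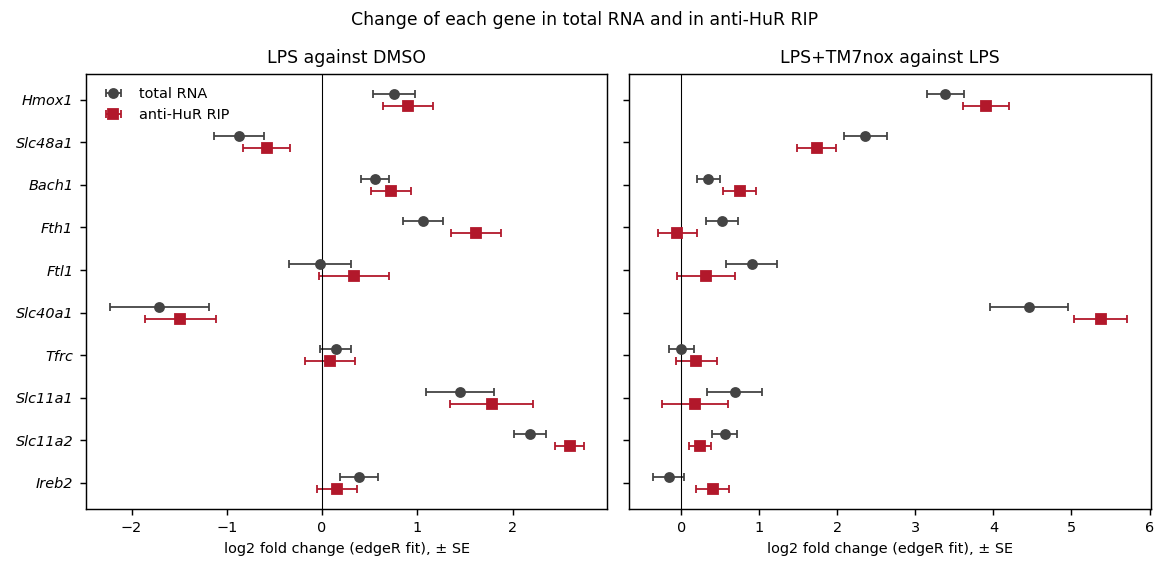
Log2 fold change with its SE for the 10 genes, LPS against DMSO (left) and LPS with TM7nox against LPS (right), in total RNA (circles) and anti-HuR RIP (squares), from edgeR. Slc40a1 and Slc48a1 lie below 0 on the left, at -1.71 and -0.87 in total RNA, and above 0 on the right, at 4.45 and 2.36.

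RIP was then set against total RNA of the same treatment, which asks how strongly an mRNA was recovered with the anti-HuR antibody relative to the typical gene. Such a ratio carries no absolute scale, because TMM places the bulk of genes at equal levels. With scaling by library totals the median of all genes moved by -0.761 in DMSO, -0.998 in LPS and -0.982 with TM7nox, and the share of called genes that were higher went from 52.6 to 34.7%, from 51.7 to 25.8% and from 50.3 to 29.6%. That scaling called 3 higher and 6 lower of the 10 genes in DMSO, 2 and 6 in LPS, and 3 and 6 with TM7nox. Values below are therefore relative to the bulk of genes. In DMSO, 4 of the 10 genes were higher in RIP and 3 lower, where 70.4% of 14311 genes tested were called. In LPS, 4 were higher and 2 lower, where 63.7% were called. With TM7nox, 4 were higher and 4 lower, where 69.9% were called. Most of the genes tested were called in these comparisons, so the direction and size for each gene say more than the count.

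Hmox1 had the highest recovery of the 10. Its same-numbered RIP to RNA ratio ranged over 4.18–7.64 for DMSO, 3.71–8.53 for LPS and 5.59–10.2 for LPS with TM7nox. The fitted log2 differences were 2.65 (SE 0.264), 2.65 (SE 0.263) and 3.21 (SE 0.269). Those in DMSO and LPS were called (adjusted p = 2.44e-09 and 3.15e-09, edgeR). The value with TM7nox is a description, since the Hmox1 level of those libraries was known beforehand. Tfrc followed, with ratios of 3.18 to 3.97, 2.20 to 3.98 and 2.67 to 4.46. Its log2 differences were 2.02, 1.84 and 2.06 (adjusted p = 2.73e-08, 1.57e-07 and 2e-08, edgeR). Ireb2 stood at 1.495, 1.153 and 1.73 (adjusted p = 7.35e-06, 0.000205 and 9.6e-07, edgeR), and its LPS call was lost with scaling by library totals (0.15, adjusted p = 0.471, or 1.15 relative to the median of all genes). Bach1 was called in each treatment at 0.60, 0.64 and 1.05 (adjusted p = 0.00661, 0.00479 and 2.57e-05, edgeR), but not in replicates 1 and 2 alone in DMSO (0.34, adjusted p = 0.321) or LPS (0.56, adjusted p = 0.105). With scaling by library totals Bach1 was at -0.20 in DMSO, -0.36 in LPS and 0.04 with TM7nox (adjusted p = 0.319, 0.0751 and 0.838, edgeR), or 0.56, 0.64 and 1.02 relative to the median of all genes.

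Fth1 and Slc11a1 were recovered less than the typical gene in each treatment. Control IgG also held less of both than total RNA, as given below. Fth1 had a same-numbered ratio between 0.261 and 0.572 in DMSO, between 0.368 and 0.623 in LPS and between 0.237 and 0.452 with TM7nox. Its log2 differences were -1.439, -1.001 and -1.548 (adjusted p = 2.18e-05, 0.00132 and 8.62e-06, edgeR). Slc11a1 stood at -1.69, -1.46 and -1.94 (adjusted p = 0.000817, 0.0027 and 0.00016, edgeR), and its ratio was never above 0.434. Ftl1 was called with TM7nox, at -0.90 (adjusted p = 0.0251, edgeR), a call lost in 8 of 31 alternatives. Among them were DESeq2 (-0.70, adjusted p = 0.0806), both subsets of replicates (adjusted p = 0.0775 and 0.127, edgeR) and leaving out RNA LPS+TM7nox replicate 1 or RIP LPS+TM7nox replicate 1, 2 or 3 (adjusted p = 0.0857, 0.0577, 0.113 and 0.0705, edgeR). In DMSO it was not called (-0.55, adjusted p = 0.165, edgeR), but was with the replicate block (-0.65, adjusted p = 0.00264) and with no filter on low counts (-0.81, adjusted p = 0.000297), both in edgeR. In LPS it was not called (-0.34, adjusted p = 0.406, edgeR). Slc40a1 was lower in DMSO, at -1.18 (SE 0.399, adjusted p = 0.0112, edgeR), a call lost in replicates 1 and 2 alone (-1.92, adjusted p = 0.0536) and in replicates 3 and 4 alone (-0.67, adjusted p = 0.0825). In LPS it was -1.07 with no call (adjusted p = 0.0712, edgeR). With TM7nox, where Slc40a1 had the most counts, it was -0.14 (SE 0.323, adjusted p = 0.708, edgeR). Slc48a1 was called with TM7nox, at -0.56 (adjusted p = 0.0377, edgeR), a call lost in 13 of 31 alternatives. Among them were DESeq2 (-0.35, adjusted p = 0.252) and leaving out RNA LPS+TM7nox replicate 1 (-0.41, adjusted p = 0.144, edgeR). Leaving out RIP LPS+TM7nox replicate 2, 3 or 4 also lost it (adjusted p = 0.0595, 0.136 and 0.2, edgeR). Slc11a2 stood between -0.36 and -0.05 with no call. In DMSO it was called lower in 14 of 31 alternatives. Among them were the block (-0.34, adjusted p = 0.0418), no filter (-0.57, adjusted p = 0.0237) and leaving out RNA DMSO replicate 1 (-0.535, adjusted p = 0.00546), all in edgeR. It was called lower in 1 of 31 in LPS and in 6 of 31 with TM7nox, there with the block among them (-0.34, adjusted p = 0.0343, edgeR).

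**Figure D4:**
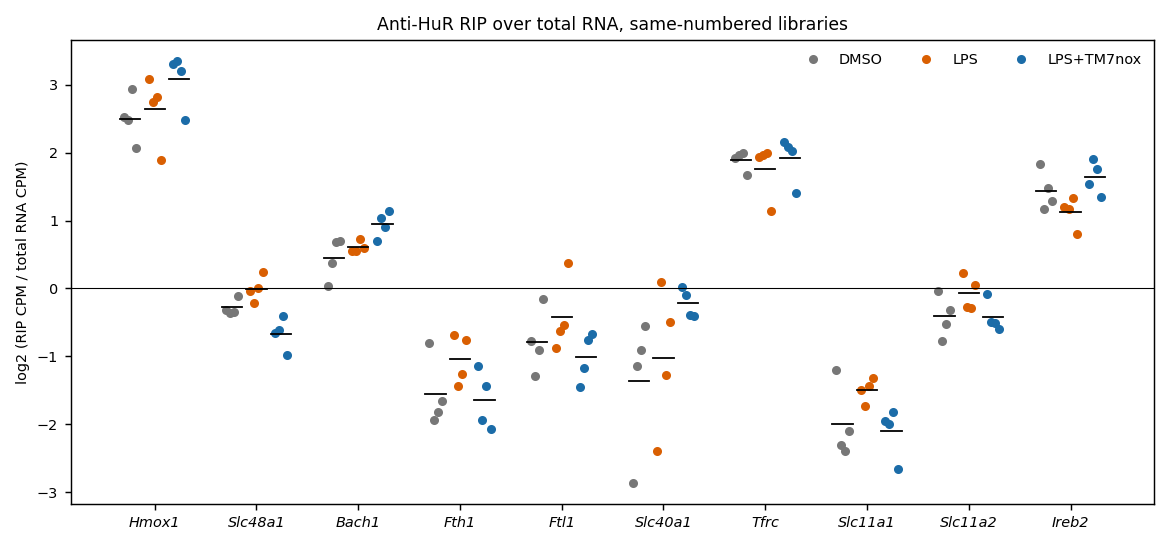
Log2 of RIP CPM over total RNA CPM of the library with the same treatment and replicate number, for the 10 genes; points are the 4 replicates, bars their means and colours the treatments. Hmox1, Tfrc, Ireb2 and Bach1 lie above 0 in every replicate, and Fth1 and Slc11a1 below 0 in every replicate.

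Whether treatment changed this recovery was tested as an interaction in 1 fit of 24 libraries. None of the 10 genes was called for LPS, where 0.0419% of 14311 genes were called, or for TM7nox, where 0.00699% were called. At an unadjusted p under 0.05 there were also 0 of 10 in both, and neither DESeq2 nor the replicate block called any of the 10. For Hmox1 the change of RIP over RNA by LPS was 0.00 (SE 0.345, adjusted p = 0.999, edgeR). The change by TM7nox, given as a description, was 0.56 for Hmox1 (SE 0.35), 0.93 for Slc40a1 (SE 0.606) and -0.59 for Slc48a1 (SE 0.337). From LPS to LPS with TM7nox, the same-numbered ratio rose in each replicate for Hmox1, Tfrc, Bach1 and Ireb2. It fell in each for Fth1, Ftl1, Slc11a1, Slc11a2 and Slc48a1, and went both ways for Slc40a1. From DMSO to LPS it rose in each replicate for Fth1, Slc11a2 and Slc48a1, but not for the other genes. These directions were not tested. With SEs of 0.245 to 0.774 over the 10 genes, a p that misses the threshold does not show that recovery was the same.

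Anti-HuR RIP was compared with control IgG in a fit of 15 libraries that also held the treatment. Of the 10 genes 4 were higher and 3 lower, where 68.1% of 14973 genes were called. With scaling by library totals the share of called genes that were higher went from 49.7 to 25.8% and the median of all genes moved by -1.02, which turned Bach1 to -0.41 and Ireb2 to -0.17, or 0.61 and 0.85 relative to that median. Of the 10 genes it called 2 higher, Hmox1 and Tfrc, and 7 lower. Hmox1 was 2.85 higher on the log2 scale (SE 0.309), given as a description because the fit holds the RIP libraries with TM7nox. Tfrc was 1.89 higher (SE 0.266, adjusted p = 3.53e-06), Ireb2 0.87 (SE 0.217, adjusted p = 0.00152) and Bach1 0.63 (SE 0.201, adjusted p = 0.00971), all in edgeR. Bach1 was not called without the IgG library of LPS with TM7nox (0.44, adjusted p = 0.12). Fth1 was lower, at -0.67 (SE 0.213, adjusted p = 0.00892, edgeR), but not called without the IgG library of DMSO (-0.52, adjusted p = 0.102). Slc11a1 at -0.81 (adjusted p = 0.0398) and Slc40a1 at -0.76 (adjusted p = 0.0461) were lower in edgeR, but the calls held in only 7 and 4 of 21 alternatives. Both were lost with DESeq2 (adjusted p = 0.0857 and 0.0902) and on leaving out most single libraries. Slc40a1 was also not called with the replicate block (-0.58, adjusted p = 0.216, edgeR). Without the IgG library of LPS it fell to -0.28 (adjusted p = 0.828, edgeR).

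The IgG libraries carried the same order of Hmox1 over treatments as total RNA. They held 40.4 CPM in DMSO, 126 in LPS and 893 with TM7nox, or 0.883, 0.987 and 0.904 of the total RNA library of replicate 3. RIP replicate 3 was 8.65, 7.16 and 10.2 times these IgG levels. For Fth1, IgG held 1299, 2816 and 3188 CPM, and RIP replicate 3 was 0.55 of that in DMSO, 0.83 in LPS and 0.75 with TM7nox. These IgG levels were 0.516, 0.501 and 0.494 of total RNA replicate 3. For Slc11a1 the IgG share of total RNA was 0.616, 0.833 and 0.673, and for Ireb2 1.13, 1.42 and 1.12. How far low RIP over RNA is particular to the anti-HuR antibody was not tested within a treatment. With 1 IgG library per treatment these ratios have no replicate check.

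The 3′ UTRs of the canonical transcripts were compared for the letters that HuR is known to favour. Tfrc had 34.9% U over 2458 bases and Ireb2 34.5% over 2789 bases, at percentiles 90.6 and 89 of the 10980 coding genes tested that had a 3′ UTR of at least 50 bases. Tfrc held 12 matches to UUUNUUU and 5 to AUUUA, Ireb2 18 and 4, and Bach1 11 and 5. Hmox1, with the highest recovery, had 31.8% U over 570 bases, at percentile 71.8, and 1 match to each motif. These UTRs differ in length, with 3475 bases for Bach1. Per kb, AUUUA stood at 2.03 for Tfrc, 1.43 for Ireb2, 1.44 for Bach1 and 1.75 for Hmox1, beside a median of 1.38 over all those genes. For UUUNUUU the values were 4.88, 6.45, 3.17 and 1.75, beside a median of 2.09. Slc40a1, which was recovered below the typical gene in DMSO, had 33.7% U, at percentile 84.7, with 3 matches to UUUNUUU and 2 to AUUUA. Slc11a1 and Ftl1 had 21.8% and 21.3% U, at percentiles 5 and 3.88, with no match to either motif. Fth1 had no match either in its 156 bases, but 33.3% U, at percentile 82.7. Bach1 had 31% U (percentile 65.8), Slc11a2 29.8% (55.2) and Slc48a1 24.2% (13.7). The order of the 10 genes by U content was not their order by recovery. Among all those genes 73.2% held UUUNUUU and 73.5% held AUUUA, with a median of 29.2% U. Overlapping matches were counted, on the mRNA strand only. These letters describe the transcripts, and binding at them was not measured.

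Levels were compared between genes per kilobase of the canonical transcript. In total RNA of DMSO cells the order was Fth1 (2150 ± 519 CPM per kb, SD, n = 4), Ftl1 (186 ± 73.5), Tfrc (50.2 ± 2.52), Hmox1 (36.3 ± 7.61), Slc48a1 (15.0 ± 3.67), Slc11a1 (11 ± 3.03), Ireb2 (8.20 ± 2.43), Bach1 (5.96 ± 0.82), Slc11a2 (4.85 ± 1.17) and Slc40a1 (0.453 ± 0.371). Fth1 and Ftl1 stood clear of the rest, and Slc40a1 stood below all. The neighbours from Slc48a1 to Slc11a2 overlapped in range, each with the one after it. After LPS, Hmox1 (63.9 ± 18.5) and Tfrc (57.6 ± 8.13) overlapped, and Slc11a1 (30.9 ± 14.6) and Slc11a2 (23.3 ± 2.8) came next. With TM7nox, Hmox1 stood second, at 664 ± 140 CPM per kb, above the whole range of the Ftl1 row (264 to 518). That order holds for the Ftl1 row alone, since reads counted to its copies are not in it. Slc40a1 reached 2.56 ± 0.408 and was still the lowest.

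The genes whose level followed Hmox1 most closely over the 12 total RNA libraries were named by Pearson's r of log2 CPM among 8276 genes with a mean of at least 5 CPM. They were Pde8b (r = 0.987), Zfand2a (0.984), Aars (0.984), Prdx1 (0.981) and Slc3a2 (0.98). Of the other 9 genes, Bach1 (0.834), Slc40a1 (0.809) and Fth1 (0.804) were nearest, and Tfrc (0.178) and Ireb2 (0.19) farthest. These correlations describe 12 libraries that fall in 3 treatments, and how much of each r lies within a treatment was not tested.

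Other genes of the pathways were read from 4 lists, beside the same background shares as above. The lists were drawn up with earlier results of these libraries known, so their p-values are not independent support. Of 22 genes for iron transport, storage and sensing, 16 were tested in total RNA, and LPS raised 9 and lowered 1, with a median log2 fold change of 0.47. Lcn2, which sequesters bacterial iron carriers, was at 0 to 0.295 CPM in DMSO and 70.4 to 111 CPM in LPS. It passed the filter on low counts only through libraries with LPS. Its log2 fold change of 9.73 (SE 0.51) rests on a near-empty DMSO group and is given as a description. Steap4, a ferrireductase, had 0 counts in DMSO and a mean of 0.729 CPM in LPS, at least 25.5-fold higher against a floor of 3 counts over the DMSO group. Steap3, the endosomal ferrireductase that works with Tfrc, fell from 16.8 to 25.0 CPM to 2.93 to 4.86 CPM (log2 fold change -2.36, SE 0.321, adjusted p = 4.37e-05, edgeR).

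With TM7nox added, 1 gene of that list was higher and 5 lower, with a median of -0.50 beside 0.00 over all genes. Fbxl5, the ubiquitin ligase subunit that marks iron regulatory proteins for destruction, had 50.4 to 60.8 CPM in LPS and 19.3 to 28.1 CPM with TM7nox (log2 fold change -1.18, SE 0.131, adjusted p = 6.22e-05, edgeR), close to its 24.2 to 31.1 CPM in DMSO. Cp, the ferroxidase ceruloplasmin, fell by 1.79 on the log2 scale (SE 0.418, adjusted p = 0.0109, edgeR). Slc25a37, mitoferrin 1, rose by 0.41 (SE 0.116, adjusted p = 0.0302, edgeR).

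Of 21 genes for the synthesis, uptake, export and breakdown of heme, 17 were tested, and LPS raised 3 and lowered 7, with a median of -0.66. The heme and folate carrier Slc46a1 fell, with a log2 fold change of -1.497 (SE 0.375, adjusted p = 0.00517, edgeR). Alas1, the first enzyme of the synthesis, rose by 0.90 (SE 0.113, adjusted p = 2.06e-05, edgeR), and Hp, haptoglobin, by 2.15 (SE 0.65, adjusted p = 0.0158, edgeR) at levels under 1 CPM. TM7nox with LPS gave 4 higher and 2 lower, with a median of 0.09. Blvrb, a biliverdin reductase that acts after heme oxygenase, went from 14.2 to 33.1 CPM to 55.6 to 104 CPM (log2 fold change 1.94, SE 0.312, adjusted p = 0.000947, edgeR). Flvcr1, described as a heme exporter, rose by 0.92 (SE 0.143, adjusted p = 0.00075, edgeR), from 8.76 to 11.2 CPM to 15.9 to 21.4 CPM. Hmox2, the constitutive heme oxygenase, fell by 0.45 (SE 0.107, adjusted p = 0.0121, edgeR), and Hp by 2.21 (SE 0.643, adjusted p = 0.0342, edgeR).

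**Figure D5:**
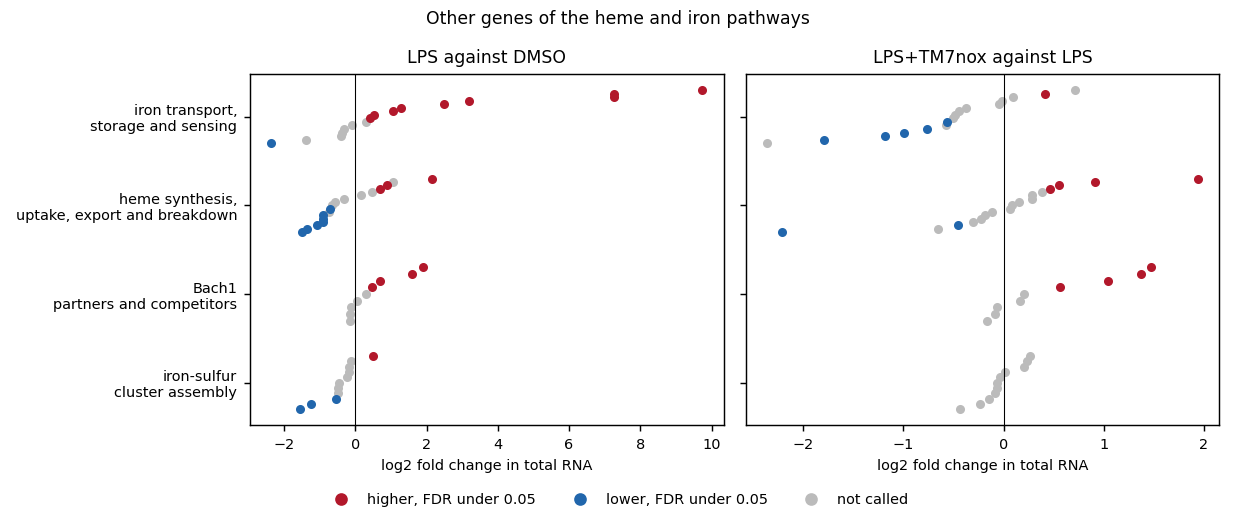
Log2 fold changes in total RNA for the tested genes of the 4 pathway lists, LPS against DMSO (left) and LPS with TM7nox against LPS (right); each point is a gene, red if called higher, blue if called lower and grey if not called, and the horizontal scales differ. In the right panel, the list of Bach1 partners has 4 genes called higher and 0 lower.

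Of 11 partners and competitors of Bach1, 9 were tested. LPS raised 4 and lowered 0, with a median of 0.31, and the small Maf genes Maff (log2 fold change 1.91, SE 0.34, adjusted p = 0.000425, edgeR) and Mafk (1.60, SE 0.162, adjusted p = 2.73e-06, edgeR) led. TM7nox with LPS gave 4 higher and 0 lower, with a median of 0.20. Mafg went from 48.2 to 66.6 CPM to 134 to 182 CPM (log2 fold change 1.47, SE 0.176, adjusted p = 0.000103, edgeR), and Maff rose by 1.37 (SE 0.303, adjusted p = 0.00783, edgeR). Of 12 genes for iron-sulfur cluster assembly, 11 were tested, and LPS raised 1 (Isca2, 0.49, SE 0.179, adjusted p = 0.0399, edgeR) and lowered 3. Hscb fell by 1.56 (SE 0.299, adjusted p = 0.000755, edgeR). With TM7nox added to LPS, 0 of the 11 were called in edgeR, and 1 of them, Isca2, had an unadjusted p under 0.05 (0.0279), with a median log2 fold change of -0.06.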

How the data were processed

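RNA from RAW264.7 cells was sequenced as total RNA, after anti-HuR RIP and after IgG RIP, from 7 ng of RNA with the SMART-Seq Stranded kit, per the labels' protocols. The authors deposited 1 table of read counts per gene for all 27 libraries. The submitters' processing notes name FastQC 0.11.9, STAR, HTSeq, DESeq2 and the build GRCm39; which annotation release and strand setting the counting used is not stated in the sources used here. The deposited counts carry no molecular identifiers, so PCR copies of a molecule could be counted more than once, and intervals on counts would cover counting error only.

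Counts were tested in R 4.3.3 with edgeR 4.0.16 (TMM scaling, filterByExpr with a minimum count of 10, quasi-likelihood F tests, Benjamini-Hochberg adjustment over all genes tested, adjusted p under 0.05 called). Total RNA and RIP were each fitted over 12 libraries, RIP over RNA and its changes over 24, and RIP against IgG over 15 with treatment as a covariate. An SE is the log2 fold change divided by the root of its F statistic. Levels are CPM on the TMM scale, and log2 CPM used a prior count of 2. The script for the tests was tested on simulated data.

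Positions, transcripts and promoter and UTR sequences came from GENCODE M39 on GRCm39, where 51731 of the 55483 gene IDs matched (93.2%). Overlapping genes were read from the same annotation.

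The 10 genes, the 4 pathway lists and the marker lists were chosen with earlier results of these data known. All 10 genes were described. For LPS against DMSO and for TM7nox with LPS against LPS in total RNA, up to 2 called genes per list and direction were named, by size of log2 fold change, if the groups did not overlap, and 5 genes most like Hmox1 were named, leaving out predicted genes. Some genes that this rule names are not reported here.

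The replicate numbers in the labels were checked for pairing. Over 9 pairs of groups, same-numbered libraries had deviations from their group means that correlated at 0.302 to 0.742, and in each pair of groups all 4 libraries correlated best with their own number. The numbers were taken to pair the libraries. The reported fits hold no replicate block, so their tests do not use this pairing, and a result not called there can be called with the block. Of 36 pairs of replicates, none agreed within sampling noise. Alternatives were DESeq2's size factors, library totals alone, no filter, DESeq2 1.42.0, the replicate block, subsets of the replicates, and leaving out each library in turn.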

Additional observations from a re-analysis of the deposited data

Results flagged for a closer look

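Ireb2, the gene of iron regulatory protein 2, had 27.0 CPM in total RNA DMSO replicate 1, the lowest of its group by a gap of 0.845 of the group's range. The other 3 DMSO libraries had 52.7 to 57.4 CPM. That library was the shallowest of the series, at 2728534 counts, and replicate 1 was also the lowest for Ireb2 in LPS (47.8 CPM) and with TM7nox (44.9 CPM). The part of depth or of the replicate number in the low value was not tested. Over the 10 genes 60 groups of 4 libraries were examined in this way and 1 stood out, where chance gives about 1 in 20.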

How the results depend on the processing

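Of 2900 recomputed values for the 10 genes over 12 comparisons, 2799 kept their direction. With the direction kept, 112 lost a call and 64 gained one. A sign change touched a call, in the reported fit or in the alternative, in 9; the other changes of direction were in values called in neither. The 9 came with scaling by library totals, which moves the median of all genes. Ireb2 in RIP went to -0.49 for LPS and -0.11 for LPS with TM7nox against DMSO. RIP over RNA went to -0.20 for Bach1 in DMSO and -0.36 in LPS, and to -0.99 for Slc48a1 in LPS. RIP against IgG went to -0.91 for Ftl1, -0.59 for Slc48a1, -0.41 for Bach1 and -0.17 for Ireb2.

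For LPS with TM7nox against LPS in total RNA, 7 of the 10 genes were called with no filter and 7 with the replicate block (3091 genes in all), 2 in replicates 1 and 2 alone (168 genes in all), and 3489 genes in replicates 3 and 4 alone. In RIP the same comparison called 4577 genes with the block, 789 in replicates 1 and 2 and 1070 in replicates 3 and 4. In replicates 1 and 2 alone, LPS against DMSO called 1668 genes and 3 of the 10 in total RNA, and 3392 genes and 3 of the 10 in RIP, and LPS with TM7nox against DMSO called 2246 genes in total RNA. These subsets hold fewer samples, and the cause of the other differences was not tested. The change of RIP over RNA by LPS (6 genes) went to 27 genes with library totals, 49 with no filter, 66 with DESeq2, 50 with the block, 0 in replicates 1 and 2, 13 in replicates 3 and 4, and 4 to 11 leaving out 1 library. That by TM7nox (1 gene) went to 2, 5, 3, 2, 0, 0 and 1 to 3 under the same settings. Against IgG, 4 to 6 of the 10 were called leaving out 1 library, with 4 without the IgG library of DMSO. Apart from the calls named beside the results, the replicate block also called Fth1, Ftl1 and Slc11a1 for TM7nox in total RNA, Ireb2 for TM7nox in RIP, and, against DMSO, Ireb2 in total RNA and Ftl1 in RIP.
Depth limits Slc40a1 most, with 3 to 17 counts per library in total RNA and RIP under LPS.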
